A study of Homo sapiens with 4 samples.

Results

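Aminoacyl-tRNA synthetases are the enzymes that join each amino acid to its own tRNAs, the step that supplies the ribosome with charged tRNA. The 38 genes described here were chosen by name from the deposited expression table of 18885 genes, and all 38 were found and tested. They comprise 19 genes for cytosolic enzymes, 16 for mitochondrial enzymes and 3 for scaffold proteins (AIMP1, AIMP2 and EEF1E1) that hold part of the cytosolic enzymes together. They do not cover every synthetase gene.

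The libraries came from MV4-11, a human acute myeloid leukemia (AML) cell line, with 2 control libraries (NC) and 2 libraries after shRNA knockdown of ANP32B (sh-ANP32B). The labels call the NC cells untreated and give their shRNA as none, while the study's methods name an sh-NC vector with puromycin selection. If the NC cells carried no vector, any effect of transduction and selection cannot be told apart from that of ANP32B loss. The study used several shRNAs against ANP32B, and the titles do not settle which the sh-ANP32B libraries carried. If these libraries shared a single shRNA, its effects on other genes cannot be told apart from ANP32B loss either. The labels do not say whether the libraries of a group came from separate cultures, so the p-values measure only the spread between these libraries, which may be technical. The values are TPM, which divide the reads of a gene by its length and bring every library to a common total, so they give a gene's share of the RNA and not its amount per cell.

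ANP32B itself had 358 and 364 TPM in NC and 54.1 and 49.3 TPM in sh-ANP32B. The groups were compared by limma on log2(TPM + 1) for 16937 genes, and every log2 fold change below is the sh-ANP32B mean minus the NC mean of these logs. Genes were called where the p adjusted by Benjamini-Hochberg was below 0.05 and the log2 fold change lay beyond 0.5. With 2 libraries against 2, the lowest two-sided p of an exact permutation test on 1 gene is 0.333, so the p-values lean on the spread that limma pools over genes. Of the myeloid marker list, 7 of 8 genes were listed, among them CD33 and SPI1. Of these 7, 4 were called higher and none lower, and 2 had a log2 fold change below 0. Of 12 markers of other cell types, 2 were listed, among them PECAM1, with 20.7 and 20.8 TPM in NC and 51.9 and 51.0 TPM in sh-ANP32B. Of 7 markers of maturing monocytes, 6 were listed and 5 were called higher. Of all genes tested, 17.9% were called higher and 10.1% lower. The summed level of the 6 was 618 and 606 TPM in NC and 6108 and 6068 TPM in sh-ANP32B. LYZ, named after its values were seen, made up most of each sum, with 471 and 463 TPM in NC and 5308 and 5260 TPM in sh-ANP32B. Whether the shift of these markers has a part in the synthetase values was not tested. In bulk RNA, fewer cells of a type and less RNA per cell cannot be told apart.

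Cells keep separate sets of synthetases for the cytosol and the mitochondrion, nearly all of them encoded by different nuclear genes. GARS1 and KARS1 are exceptions, since each encodes both forms of its enzyme. EPRS1 encodes a single cytosolic protein that charges the tRNAs of both glutamate and proline. Many cytosolic synthetase genes are known targets of ATF4, the transcription factor of the amino acid response, and synthetase genes have also been linked to MYC in growing cells.

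Most synthetase and scaffold mRNAs were lower after ANP32B knockdown. Of the 38 genes, 13 were called lower (34.2%) and none was called higher, while 10.1% of all genes tested were called lower and 17.9% higher. The highest log2 fold change of the 38 genes was 0.28 (RARS2), so at this fold limit no rule on p could call one higher. Without the fold limit, 28 of the 38 genes (73.7%) were lower at an adjusted p below 0.05 in limma, against 19.7% of all genes, and 1 was higher, against 26% of all genes. Both sh-ANP32B libraries lay below both NC libraries for 30 of the 38 genes (78.9%) and above both for 4, against 32.1% and 42.5% of all genes tested. The log2 fold change was below 0 for 32 genes (84.2%), against 43.7% of all genes. The median log2 fold change was -0.42 for the 38 genes and 0.08 for all genes tested. The changes were moderate, and the called genes kept 55.8% to 69.9% of their mean NC level. None of the 13 passed a fold limit of 1, and YARS1 alone passed when the fold limit of 0.5 was made part of the test (treat in limma). Another scaling of the libraries, by the median of ratios, raised the number of members called lower to 20. It also raised the share of all genes called lower from 10.1% to 13.7%. Quantile normalization gave 12 members, with 13.1% of all genes called lower. Leaving out any 1 library gave 12 to 14.

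**Figure D1:**
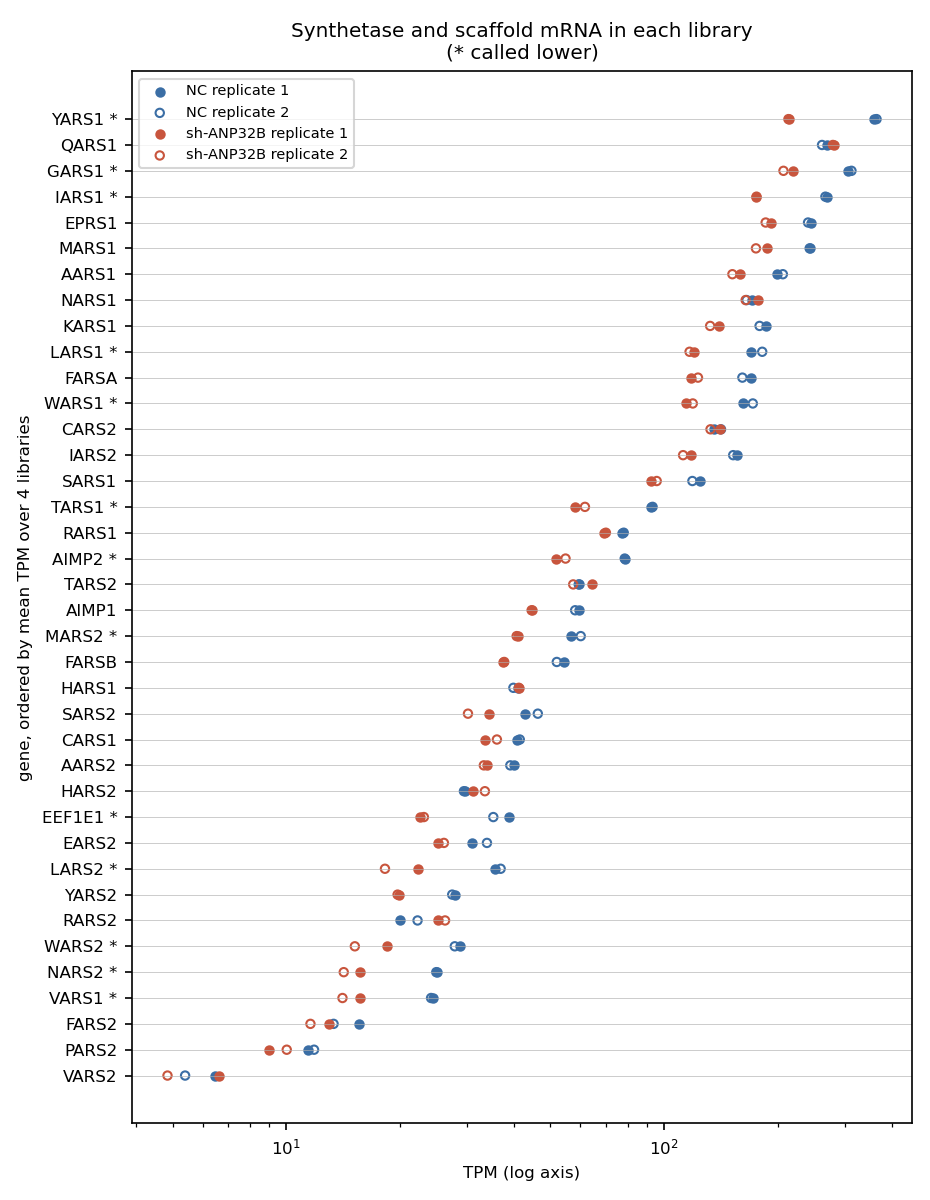
TPM of the 38 genes in each library on a log axis, ordered by mean TPM, with NC in blue and sh-ANP32B in red (filled, replicate 1, and open, replicate 2). An asterisk marks the 13 genes called lower. For each of these both red points lie to the left of both blue points, as for 32.1% of all genes tested. The 38 genes span from VARS2 at a mean of 5.83 TPM to YARS1 at a mean of 288 TPM.

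Summed over the 19 cytosolic genes, the level was 3204 and 3201 TPM in NC and 2442 and 2398 TPM in sh-ANP32B, which left 75.6% of the NC mean. For the 16 mitochondrial genes it was 722 and 732 TPM against 618 and 586 TPM, or 82.8%. For the 3 scaffold genes it was 177 and 172 TPM against 119 and 122 TPM, or 69.2%. In each of these sums the groups did not overlap, and no test was run on them.

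Of the 19 cytosolic genes, 7 were called lower (10.1% of all genes were). At an adjusted p below 0.05 alone, 16 were lower (19.7% of all genes were). The median log2 fold change of the 19 genes was -0.42. YARS1 (tyrosine) had the highest level of the 38 genes and the most negative log2 fold change of the cytosolic ones. It had 359.7 and 365 TPM in NC and 214 and 213 TPM in sh-ANP32B. The replicates lay close together and the groups were far apart, at -0.76 on the log2 scale (SE 0.035, limma adjusted p = 0.000129). In hg38, YARS1 (ENSG00000134684) occupies chr1:32775237-32818031 (minus strand).

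VARS1 (valine) had 24.5 and 24.2 TPM in NC and 15.7 and 14.1 TPM in sh-ANP32B (log2 fold change -0.67, limma adjusted p = 0.00242). It was the cytosolic gene with the lowest level. Its sh-ANP32B libraries both lay below both NC libraries, as for 32.1% of all genes tested. VARS1 and its mitochondrial counterpart VARS2 both lie in the major histocompatibility region on chromosome 6. In the interval from GABBR1 to KIFC1 (29555629 to 33409896), the 84 protein-coding genes tested had a median level of 6.13 TPM, against 26.3 TPM for the 11282 others. Their replicates also differed more, with a median difference of 0.176 on the log2 scale in NC against 0.0851 for the others. The genes compared were not matched for level. The replicates of VARS1 differed by 0.0182 in NC and 0.147 in sh-ANP32B, and those of VARS2 by 0.225 and 0.382. Whether reads of this region were placed elsewhere was not tested.

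TARS1 (threonine) had 92.3 and 93.2 TPM in NC and 58.1 and 61.7 TPM in sh-ANP32B (log2 fold change -0.62, limma adjusted p = 0.00054). IARS1 (isoleucine) had 269 and 267 TPM against 175 and 175.5 TPM (log2 fold change -0.61, SE 0.036, limma adjusted p = 0.000216). LARS1 (leucine) had 169 and 182 TPM against 119.7 and 117 TPM (log2 fold change -0.57). In these 3 genes both sh-ANP32B libraries lay below both NC libraries, as for 32.1% of all genes tested. The groups differed by more than the replicates did.

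GARS1 (glycine) and WARS1 (tryptophan) were called close to the fold limit. GARS1 had 306 and 313 TPM in NC and 219 and 207 TPM in sh-ANP32B (log2 fold change -0.54, limma adjusted p = 0.000513). Its log2 fold change was -0.49 without sh-ANP32B replicate 2 and -0.47 after quantile normalization, both inside the fold limit. WARS1 had 162 and 172 TPM against 114 and 119 TPM (log2 fold change -0.51, limma adjusted p = 0.000845). It was inside the fold limit without NC replicate 2 (-0.47), without sh-ANP32B replicate 1 (-0.48) and after quantile normalization (-0.49). GARS1 shares 312 exonic bases with GARS1-DT, a divergent transcript on the opposite strand, which had 55.2 and 58.3 TPM in NC and 139 and 129 TPM in sh-ANP32B. The handling of strand in the quantification was not given in the sources used here, so the reads of this stretch may count for either.

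A further 9 cytosolic genes were lower at an adjusted p below 0.05 but inside the fold limit. They were FARSB (-0.49) and FARSA (-0.46), whose products form the subunits of the phenylalanine enzyme, MARS1 (methionine, -0.42), KARS1 (lysine, -0.42), AARS1 (alanine, -0.38), SARS1 (serine, -0.37), EPRS1 (-0.36), CARS1 (cysteine, -0.24) and RARS1 (arginine, -0.15), all as log2 fold changes. RARS1 missed the test with replicate as a block (limma adjusted p = 0.0711), after quantile normalization (0.0583) and with any library left out (0.106 to 0.132). CARS1 missed it without either NC library (limma adjusted p = 0.0907 and 0.107) and without sh-ANP32B replicate 1 (0.123). The ratio of FARSA to FARSB TPM was 3.12 and 3.1 in NC and 3.13 and 3.26 in sh-ANP32B, so both subunit mRNAs were lower by similar factors. MARS1 shares 519 exonic bases on the opposite strand with ARHGAP9, which had 50.5 and 61.4 TPM in NC and 156 and 152 TPM in sh-ANP32B.

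QARS1, HARS1 and NARS1, the cytosolic enzymes of glutamine, histidine and asparagine, stood apart from the other 16. QARS1 had 269 and 262 TPM in NC and 282 and 279 TPM in sh-ANP32B (log2 fold change 0.08, limma adjusted p = 0.134). QARS1 ranked 4 among the 38 genes by mean TPM in NC and 1 in sh-ANP32B. HARS1 had 41.0 and 39.9 TPM against 41.4 and 41.2 TPM (limma adjusted p = 0.706), and NARS1 had 171 and 165 TPM against 177 and 164 TPM (limma adjusted p = 0.759). For all 3 genes the sign depended on the scaling, since the log2 fold changes were -0.018, -0.066 and -0.075 under median-of-ratios scaling. Quantile normalization gave 0.17 for QARS1 (limma adjusted p = 0.014), still inside the fold limit.

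**Figure D2:**
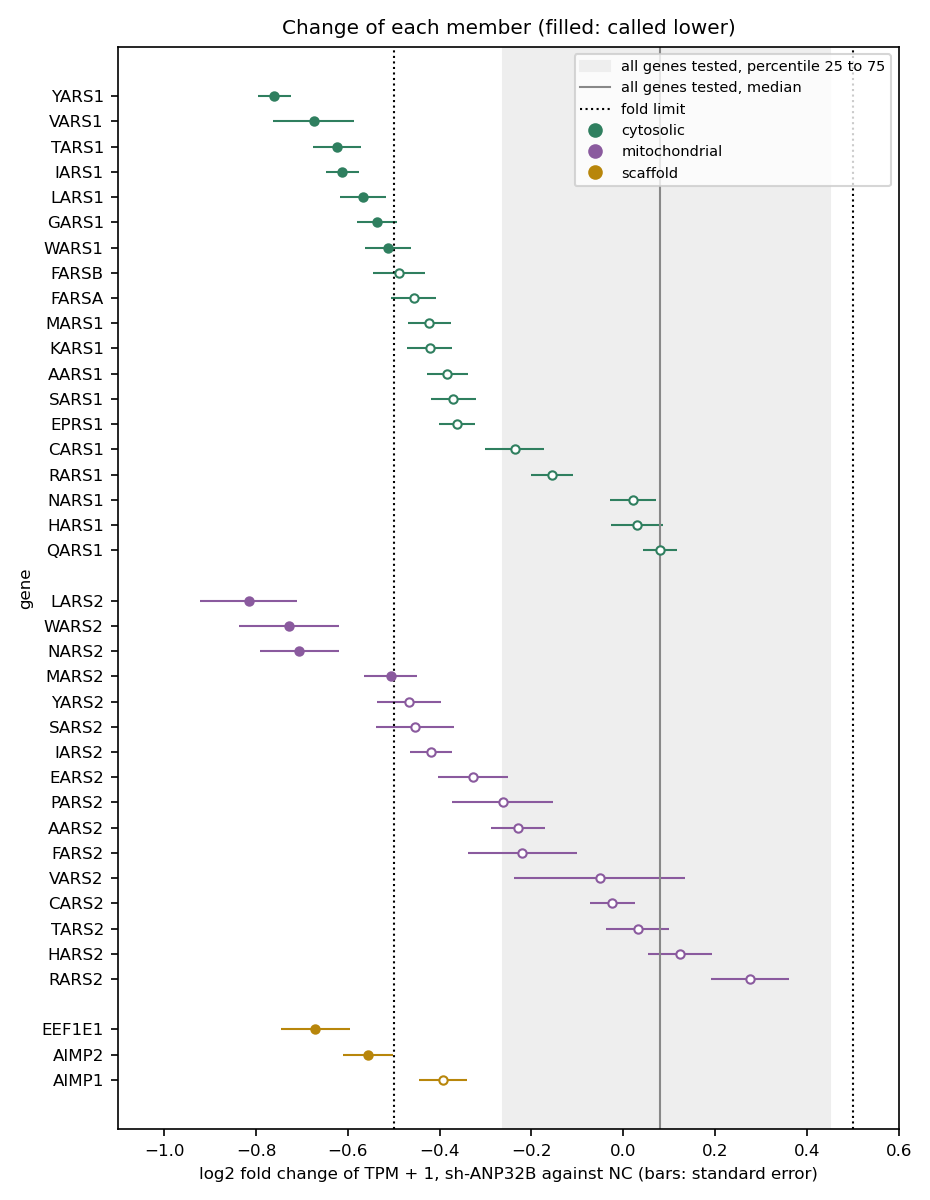
Log2 fold change of each of the 38 genes with its standard error from limma, by compartment. Filled points mark the 13 genes called lower, the dotted lines the fold limit of 0.5 and the grey band percentile 25 to 75 of all genes tested (-0.26 to 0.45, median 0.08), and most points lie to the left of the band.

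The multisynthetase complex of the cytosol is a stable assembly of several synthetases with the 3 scaffold proteins. The 38 genes include 10 of its components, of which 4 were called lower (10.1% of all genes were). At an adjusted p below 0.05 alone, 9 of the 10 were lower (19.7% of all genes were), QARS1 being the other one. The median log2 fold change of the 10 was -0.42, and that of the 12 cytosolic genes outside the complex was -0.47. EEF1E1, which encodes the scaffold also known as AIMP3, had 38.7 and 35.3 TPM in NC and 22.6 and 23.1 TPM in sh-ANP32B (log2 fold change -0.67, limma adjusted p = 0.00139). AIMP2 had 78.6 and 78.6 TPM against 51.6 and 54.8 TPM (log2 fold change -0.56, limma adjusted p = 0.000865). AIMP1 had 59.6 and 58.1 TPM against 44.6 and 44.6 TPM (log2 fold change -0.39, limma adjusted p = 0.00254), inside the fold limit. For all 3 scaffold genes both sh-ANP32B libraries lay below both NC libraries, as for 32.1% of all genes tested. AIMP2 shares 532 exonic bases, 29.1% of its own, with EIF2AK1 on the opposite strand. EIF2AK1, a kinase of the integrated stress response, was also lower, with 146 and 143 TPM in NC and 97.6 and 89.3 TPM in sh-ANP32B, and a part of either value could come from the other gene. EEF1E1 shares 393 exonic bases with a readthrough gene on the same strand.

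Of the 16 mitochondrial genes, 4 were called lower (10.1% of all genes were). At an adjusted p below 0.05 alone, 9 were lower and 1 was higher, against 19.7% and 26% of all genes. The median log2 fold change of the 16 genes was -0.30. LARS2 (leucine) had the most negative log2 fold change of the 38 genes with all 4 libraries, but not without sh-ANP32B replicate 2, where it was -0.68 and that of YARS1 was -0.76. It had 35.6 and 36.9 TPM in NC and 22.2 and 18.2 TPM in sh-ANP32B. Both sh-ANP32B libraries lay below both NC libraries, as for 32.1% of all genes tested. The sh-ANP32B libraries differed by 0.273 on the log2 scale. The fitted difference between the groups was -0.82 on the log2 scale (SE 0.106, limma adjusted p = 0.00231). In hg38, LARS2 (ENSG00000011376) occupies chr3:45388561-45554726 (plus strand).

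WARS2 (tryptophan) had 28.9 and 27.9 TPM in NC and 18.5 and 15.2 TPM in sh-ANP32B (log2 fold change -0.73, limma adjusted p = 0.00389). NARS2 (asparagine) had 25 and 24.9 TPM against 15.7 and 14.2 TPM (log2 fold change -0.71, limma adjusted p = 0.00188). MARS2 (methionine) had 56.8 and 60.1 TPM against 41.0 and 40.7 TPM (log2 fold change -0.51, limma adjusted p = 0.00145). In all 3 both sh-ANP32B libraries lay below both NC libraries, as for 32.1% of all genes tested. The log2 fold change of MARS2 was -0.47 without NC replicate 2, inside the fold limit.

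YARS2 (-0.47), SARS2 (-0.45), IARS2 (-0.42), EARS2 (-0.33) and AARS2 (-0.23) were lower at an adjusted p below 0.05 and inside the fold limit. AARS2 missed the test with any library left out (limma adjusted p 0.0676 to 0.105), and EARS2 without NC replicate 2 (0.0807) and without sh-ANP32B replicate 1 (0.0624). SARS2 shares 48.2% of its exonic bases with a readthrough gene on the same strand, so its value is uncertain. It passed the fold limit without NC replicate 1 (-0.51), without sh-ANP32B replicate 1 (-0.54) and under median-of-ratios scaling (-0.55). PARS2, FARS2, VARS2, CARS2, TARS2 and HARS2 did not pass the test, with adjusted p from 0.104 for PARS2 to 0.847 for VARS2 in limma. VARS2 had the lowest level of the 38 genes, with 6.47 and 5.4 TPM in NC and 6.62 and 4.85 TPM in sh-ANP32B. An lncRNA gene on the same strand shares 63.0% of its exonic bases.

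RARS2 (arginine) was the gene that was higher at an adjusted p below 0.05. It had 20.0 and 22.2 TPM in NC and 25.2 and 26.3 TPM in sh-ANP32B (log2 fold change 0.28, SE 0.085, limma adjusted p = 0.0439). It missed the test after quantile normalization (limma adjusted p = 0.0544), under median-of-ratios scaling (0.11) and with replicate as a block in the fit (0.052). It also missed it without NC replicate 1 (0.172), without sh-ANP32B replicate 1 (0.0862) and without sh-ANP32B replicate 2 (0.149), each an adjusted p from limma. HARS2 and HARS1, which lie head to head on chromosome 5 and share 108 exonic bases on opposite strands, both missed the test. HARS2 had 29.6 and 29.5 TPM in NC and 31.1 and 33.5 TPM in sh-ANP32B (log2 fold change 0.12, limma adjusted p = 0.199).

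For 13 amino acids the 38 genes hold a cytosolic and a mitochondrial enzyme with a gene each. Both genes were called lower for leucine and tryptophan, the cytosolic gene alone for 4 amino acids, the mitochondrial gene alone for 2, and neither for 5. Of all genes tested, 10.1% were called lower. Asparagine had the widest gap, with NARS1 at 0.02 and NARS2 at -0.71 on the log2 scale. The ratio of NARS1 to NARS2 TPM was 6.82 and 6.62 in NC and 11.3 and 11.6 in sh-ANP32B. Threonine went the other way, with TARS1 at -0.62 and TARS2 at 0.03. NARS1 and TARS2 missed the test, and both had values below 0 under median-of-ratios scaling. TARS2 had 59.5 and 59.4 TPM in NC and 64.3 and 57.4 TPM in sh-ANP32B, and the ratio of TARS1 to TARS2 TPM was 1.55 and 1.57 in NC and 0.903 and 1.07 in sh-ANP32B. The ratio of RARS1 to RARS2 TPM was 3.88 and 3.51 in NC and 2.76 and 2.66 in sh-ANP32B. Over the 13 pairs, the ratio of cytosolic to mitochondrial TPM was lower in both sh-ANP32B libraries than in both NC libraries for 8 and higher for 4. Of all single genes tested, 32.1% were lower and 42.5% higher in this way. No such share was computed for ratios of other gene pairs. The ratios of the 13 pairs are a description of 4 libraries and were not tested.

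**Figure D3:**
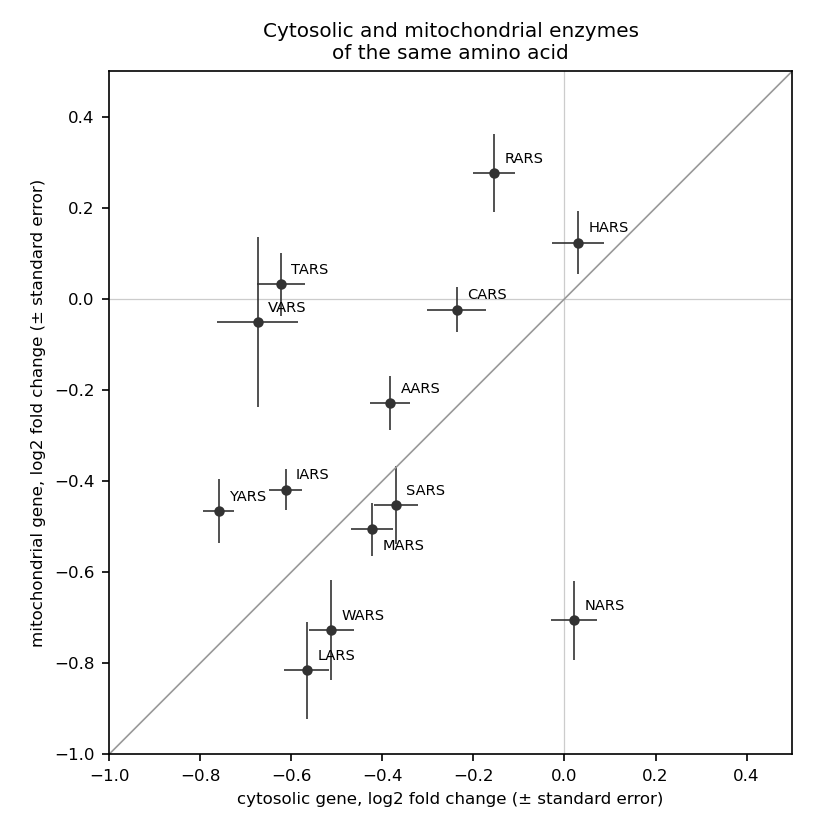
Log2 fold change of the cytosolic gene (horizontal) and of the mitochondrial gene (vertical) for 13 amino acids, each with its standard error, and the line on which both are equal. Asparagine lies far below the line, with NARS1 at 0.02 and NARS2 at -0.71, and threonine far above it, with TARS1 at -0.62 and TARS2 at 0.03.

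By catalytic fold, synthetases fall into class I and class II, which differ in the shape of their active site. Of the 18 class I genes, 8 were called lower, with a median log2 fold change of -0.44. Of the 16 class II genes, 3 were called lower, with a median of -0.38. At an adjusted p below 0.05 alone, 14 class I and 10 class II genes were lower, so the gap in calls rested partly on the fold limit. Of all genes tested, 10.1% were called lower and 19.7% were lower at an adjusted p below 0.05 alone. EPRS1 holds a domain of each class. The difference between the classes was not tested.

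The amino acid response acts through ATF4, which binds with C/EBP partners to a short element, and MYC binds with MAX to the E-box. Promoter windows of 300 bases (250 before and 50 after a RefSeq start, GRCh38.p14) were matched for 33 of the 38 genes. TGATGNAA was searched on both strands as the amino acid response element. It was found for 7 of the 16 cytosolic genes with a window (43.8%), for 1 of 14 mitochondrial genes (7.14%) and for none of the 3 scaffold genes, against 4.46% of all 27305 genes with a window. The 8 matches are printed because they mark which promoters carry the element, each as 30 bases 5′ to 3′ on the strand of the gene with the match in capitals.

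AARS1, chr16:70289675-70289704, minus strand: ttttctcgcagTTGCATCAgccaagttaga
CARS1, chr11:3057407-3057436, minus strand: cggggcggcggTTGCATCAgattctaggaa
GARS1, chr7:30594834-30594863, plus strand: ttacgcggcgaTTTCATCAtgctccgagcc
IARS1, chr9:92293692-92293721, minus strand: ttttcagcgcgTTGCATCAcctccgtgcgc
MARS1, chr12:57488053-57488082, plus strand: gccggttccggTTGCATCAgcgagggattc
NARS1, chr18:57621804-57621833, minus strand: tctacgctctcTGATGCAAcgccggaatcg
TARS1, chr5:33440956-33440985, plus strand: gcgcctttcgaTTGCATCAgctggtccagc
YARS2, chr12:32756076-32756105, minus strand: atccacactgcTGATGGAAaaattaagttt

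In AARS1, CARS1, IARS1, MARS1 and TARS1 the match read TTGCATCA, the reverse complement of TGATGCAA, the form found in NARS1. The matches of CARS1, IARS1, MARS1, NARS1 and TARS1 began within 15 bases of a RefSeq start. Of these 7 cytosolic genes, GARS1, IARS1 and TARS1 were called lower, AARS1, CARS1 and MARS1 were lower inside the fold limit, and NARS1 missed the test. The median log2 fold change was -0.42 for the 7 cytosolic genes with a match and -0.37 for the 9 without one. Genes with and without a match overlapped in their changes, and the difference was not tested.

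CACGTG, the E-box, was found for 5 of the 33 genes (15.2%), against 8.77% of all genes with a window. Of these, IARS1, AIMP2 and MARS2 were called lower, EARS2 was lower inside the fold limit, and CARS2 missed the test. They are printed in the same way to show the sites in the genes that were called.

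AIMP2, chr7:6009478-6009507, plus strand: ccgggcgctggcCACGTGcaggtaggagcg
IARS1, chr9:92293866-92293895, minus strand: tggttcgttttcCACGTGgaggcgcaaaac
MARS2, chr2:197705346-197705375, plus strand: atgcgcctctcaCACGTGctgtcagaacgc

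IARS1 was the only gene of the 33 with both motifs in a window. CCAAT, a common promoter element, was found for 19 of the 33 genes (57.6%), against 39.7% of all genes. A match describes letters and not binding.

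The list of the amino acid response held 29 genes besides the synthetases, 26 of which were listed and tested. Of these, 12 were called lower and 2 higher, where the shares of all genes were 10.1% and 17.9%, and the median was -0.46 on the log2 scale. At an adjusted p below 0.05 alone, 17 were lower and 3 higher, against 19.7% and 26% of all genes. The third higher gene was CEBPB, a C/EBP factor named after its values were seen, with 155 and 151 TPM in NC and 212 and 212 TPM in sh-ANP32B (log2 fold change 0.47, limma adjusted p = 0.000522). ATF4 had 384 and 409 TPM in NC and 230.4 and 216 TPM in sh-ANP32B (log2 fold change -0.83, SE 0.052, limma adjusted p = 0.000246). DDIT3 (CHOP), a factor induced by ATF4, had 15.0 and 16.5 TPM against 12.2 and 13.6 TPM (limma adjusted p = 0.0912), and it shares 355 exonic bases with MARS1 on the opposite strand.

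Among genes that make or import amino acids, PHGDH, the first enzyme of serine synthesis, had 613 and 599 TPM in NC and 275 and 260.0 TPM in sh-ANP32B (log2 fold change -1.18, limma adjusted p = 8.53e-05). PSAT1, the next enzyme of that path, had a log2 fold change of -0.86. SLC7A5 and SLC3A2, which together form a transporter of large neutral amino acids, had log2 fold changes of -0.81 and -0.58. PSAT1, SLC7A5 and SLC3A2 were named after their values were seen. DDIT4, a stress-induced inhibitor of mTORC1 signaling, had the lowest log2 fold change of the list, -1.43, with 131 and 134 TPM against 48.5 and 48.7 TPM.

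ASNS (asparagine synthetase, which makes the amino acid and does not charge tRNA) and SLC7A11 (a cystine transporter) were the 2 genes called higher. ASNS had 6.91 and 7.29 TPM in NC and 12.2 and 10.5 TPM in sh-ANP32B (log2 fold change 0.61, limma adjusted p = 0.0117). SLC7A11 had 5.03 and 4.76 TPM against 7.20 and 7.62 TPM (log2 fold change 0.51, limma adjusted p = 0.0252). The call of ASNS was lost after quantile normalization (0.45) and without sh-ANP32B replicate 1 (limma adjusted p = 0.0545). That of SLC7A11 was lost under both other scalings and with any library left out.

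**Figure D4:**
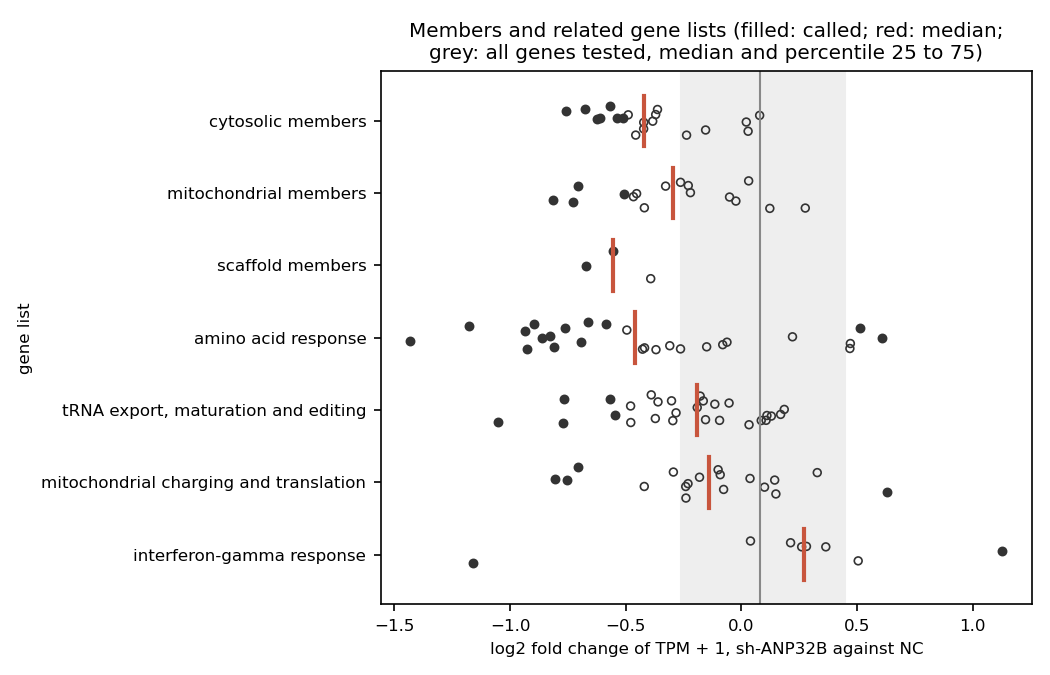
Log2 fold changes of the members by compartment and of 4 related gene lists, with called genes filled, list medians in red, and the median and percentile 25 to 75 of all genes tested in grey. The medians are -0.42, -0.30 and -0.56 for the cytosolic, mitochondrial and scaffold members, and -0.46, -0.19, -0.14 and 0.27 for the 4 lists in order.

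Of 28 genes of tRNA export, maturation and editing, 27 were tested and 5 were called lower (10.1% of all genes were). At an adjusted p below 0.05 alone, 13 were lower (19.7% of all genes were), and the median log2 fold change was -0.19. XPOT, the exporter of tRNA from the nucleus, had 128 and 128 TPM in NC and 104 and 105 TPM in sh-ANP32B (log2 fold change -0.30, limma adjusted p = 0.00281). RPP21 and POP7, subunits of the RNase P that trims tRNA precursors, had the lowest values of the list, -1.05 and -0.77. RPP21 lies in the major histocompatibility region and had 8.70 and 6.22 TPM against 4.2 and 2.13 TPM, and its call was lost without NC replicate 1 (limma adjusted p = 0.125) and without sh-ANP32B replicate 2 (limma adjusted p = 0.0746). TSEN34 and TRNT1 had the highest values, 0.19 and 0.17, and neither passed the test.

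Mitochondria make their glutaminyl-tRNA indirectly, by an amidotransferase built from GATB, GATC and QRSL1, and QARS1 has no mitochondrial counterpart among the 38 genes. GATC had 32.6 and 30.7 TPM in NC and 20.9 and 14.8 TPM in sh-ANP32B (log2 fold change -0.81, limma adjusted p = 0.0103). QRSL1, named after its values were seen, had 21.9 and 22.9 TPM against 13.7 and 13.0 TPM (log2 fold change -0.71, limma adjusted p = 0.0018). GATB had a log2 fold change of -0.29 (limma adjusted p = 0.0263), and it missed the test with replicate as a block (0.0516) and with any library left out (0.0558 to 0.116). These belong to a list of 18 genes of mitochondrial charging and translation, of which 3 were called lower and 1 higher, beside 10.1% and 17.9% of all genes, with a median of -0.14. TUFM, the mitochondrial elongation factor Tu, had 329.7 and 343 TPM against 201 and 198 TPM (log2 fold change -0.75). MTERF4, which acts in mitochondrial ribosome assembly, was the gene called higher, at 0.63, and HSD17B10, a subunit of mitochondrial RNase P, had 0.33 and missed the test under median-of-ratios scaling (limma adjusted p = 0.119), without NC replicate 2 (0.0975) and without sh-ANP32B replicate 1 (0.113).

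WARS1 is also an interferon-induced gene, and genes that respond to interferon-gamma were followed beside it. Of 16 such genes, 8 were tested, 1 was called higher and 1 lower, beside 17.9% and 10.1% of all genes, and the median was 0.27. IRF1, a transcription factor of that response, had 8.40 and 9.99 TPM against 11.1 and 11.3 TPM (limma adjusted p = 0.137). IFI30, a lysosomal reductase that is also high in maturing myeloid cells, was called higher, at 1.13. SOCS1 (0.51) and IRF8 (0.04) missed the test. PSMB9, an immunoproteasome subunit in the major histocompatibility region, was called lower, at -1.16, from 7.07 and 4.31 TPM against 2.94 and 1.18 TPM. Its call was lost without NC replicate 1 (limma adjusted p = 0.164), without sh-ANP32B replicate 2 (limma adjusted p = 0.116) and with a pseudocount of 0.1 (limma adjusted p = 0.0508).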

How the data were processed

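RNA of MV4-11 cells was sequenced in 4 libraries, 2 per group, grouped by the titles in the labels. Reads had been placed on hg38 by HISAT2 2.0.5 (per the labels), and the authors deposited one TPM value for each gene in each library. The unit follows from the column totals, 997271 to 998546. The quantifier, annotation and strand setting are not given in the sources used here. Since TPM hold no read numbers, depth is not known and counting error could not be computed. DESeq2, used in the study, works on counts and was not run. The knockdown columns carry the mark S3 and were taken as the replicates of the knockdown group, the only one in the series.

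Gene identifiers were matched to GENCODE 44 (17290 of 18885 had a symbol), from which positions and exon overlaps came. Genes reaching 1 TPM in 2 or more libraries entered limma 3.58.1 (lmFit, eBayes with trend, R 4.3.3) on log2(TPM + 1), with Benjamini-Hochberg adjustment over all of them. Tables and plots were made with Python 3.11.15. The fit was tested on simulated data whose planted changes were larger than that of any member, so the test does not cover changes of the members' size.

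The members and lists were chosen with earlier results of these data known. All 38 members are accounted for, and related lists are named by their 2 highest and 2 lowest log2 fold changes and by genes set in advance, such as ATF4 and XPOT. Genes with overlapping exons (EIF2AK1, GARS1-DT, ARHGAP9) and those marked so were named after their values were seen. Alternatives were the replicate block, a pseudocount of 0.1, 2 other filters, 2 other scalings, 4 other call rules and each library left out. Promoters came from RefSeq (GRCh38.p14). Some genes of the lists are not reported here by name.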

Additional observations from a re-analysis of the deposited data

How the results depend on the processing

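The split of calls between lower and higher genes depended on the scaling. Of the called genes, 36.1% were lower with no rescaling, 48.9% under median-of-ratios scaling and 49.8% after quantile normalization, and the median over all genes moved from 0.08 to -0.0045 and -0.035 (log2). Under median-of-ratios scaling 20 members were called lower, 11 cytosolic and 7 mitochondrial, and the medians were -0.52 (cytosolic) and -0.39 (mitochondrial). After quantile normalization 12 members were called lower, 11 of them also called without rescaling, and the mitochondrial median was -0.37. The share of all genes called lower was 10.1% with no rescaling, 13.7% under median-of-ratios scaling and 13.1% after quantile normalization.

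The call rule moved the counts most. With no fold limit, 3342 of all genes were lower, and of the members 28 were lower (16 cytosolic, 9 mitochondrial) and 1 mitochondrial gene higher. With a fold limit of 1, 273 genes were lower and 1136 higher, with 0 members, 0 cytosolic and 0 mitochondrial among the lower ones. Limma's treat test called 481 genes lower and 950 higher, with 1 cytosolic and 0 mitochondrial members. These changes follow from the rules themselves.

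With each library left out in turn, 12 to 14 members were called lower, 6 to 7 cytosolic and 3 to 5 mitochondrial. The cytosolic median ran from -0.46 to -0.40 and the mitochondrial median from -0.34 to -0.30. The log2 fold change of ANP32B ran from -2.85 to -2.72.

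Genes near 0 changed sign. Under median-of-ratios scaling HARS1 was at -0.066, NARS1 at -0.075, QARS1 at -0.018, TARS2 at -0.064 and IRF8 at -0.058, and after quantile normalization TSEN34 was at -0.083. With a library left out, NARS1 ran from -0.031 to 0.074, TARS2 from -0.048 to 0.11, CARS2 from -0.063 to 0.016, VARS2 from -0.24 to 0.14, IRF8 from -0.19 to 0.27 and TSEN34 from -0.13 to 0.50. None of these genes was called.

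The same-numbered libraries did not deviate together (correlation of their deviations -0.0232), so the numbers were not taken as pairs. With the replicate block 13 members were called lower and none higher, the same 13 genes, and 1671 of all genes were lower and 2853 higher. The pseudocount of 0.1 and both other filters also left these 13 called. The unknown depth limits what can be said of the lowest genes.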
